A study of Mus musculus with 6 samples.

Results

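Glutamatergic neurons of the mouse hypothalamus that carry the forkhead transcription factor gene *Foxb1*, a marker of the mammillary region, made up 151 of the 39665 nuclei that passed a depth minimum, out of 39953 barcodes deposited. A nucleus was taken as a *Foxb1* neuron when it held at least 1000 unique molecular identifiers (UMIs, each counted as 1 captured RNA molecule), at least 2 UMIs of *Foxb1*, at least 1 of the vesicular glutamate transporter *Slc17a6*, fewer than 2 of *Gad1*, *Gad2* and *Slc32a1* together (genes of GABAergic neurons), and fewer than 2 of *Fezf1* and *Nr5a1* together (genes of the ventromedial nucleus). The levels of these 7 genes chose the nuclei and were not tested. The study profiled hypothalamic nuclei of male C57Bl/6 wild-type mice aged 6 to 8 weeks by droplet-based single-nucleus RNA sequencing (nucSeq). One group of mice was fed ad libitum and the other was fasted for 16 h. Each pool joined the hypothalami of 6 mice, and the files hold 4 libraries from 2 ad libitum fed pools (12 mice) and 2 libraries from 1 fasted pool (6 mice). The labels place the 2 fed pools on separate days but do not say which of the fed libraries came from the same pool. The fed libraries are therefore called fed 1 to 4 (adlib 1 to 4 in the plots) and the others fasted 1 and 2. With 1 fasted pool, an effect of the fast cannot be told apart from a difference between pools.

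The mammillary bodies lie at the caudal end of the hypothalamus. Their neurons are mostly glutamatergic, receive input from the hippocampal formation through the fornix, and send axons through the mammillothalamic and mammillotegmental tracts to the anterior thalamus and the tegmentum, a path known for its part in spatial and episodic memory. During development *Foxb1* is switched on in the progenitors of this region, and the homeobox genes *Lhx1* and *Lhx5* and the basic helix-loop-helix gene *Sim1* are among the factors known from mammillary neurons.

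The number of *Foxb1* neurons differed strongly between libraries. There were 6 in fed 1, 7 in fed 2, 52 in fed 3, 51 in fed 4, 19 in fasted 1 and 16 in fasted 2, so that 103 of the 151 came from fed 3 and fed 4. Summed over these nuclei the depth was 31661, 36637, 509664, 479923, 138429 and 132295 UMIs in the same order. In CPM, the UMIs of a gene per 1000000 UMIs summed over the nuclei of a library, 1 UMI was therefore worth 31.6 CPM in fed 1 and 27.3 CPM in fed 2, but 1.96 and 2.08 CPM in fed 3 and fed 4 and 7.22 and 7.56 CPM in the fasted libraries. Levels in fed 1 and fed 2 rest on few molecules and have the widest counting error. A *Foxb1* neuron held a median of 8220 UMIs (2072 to 25323), against 7278 in the 10348 other glutamatergic nuclei, which met the same rule with no *Foxb1* UMI. Among 39800 distinct barcodes 152 occurred in at least 2 libraries, 2 of them belonging to *Foxb1* neurons, and none was a *Foxb1* neuron in both of its libraries. A doublet score, set to mark the top 5% of the nuclei of each library, marked 11 of the 151 nuclei, which were kept in the main values.

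The rule stood close to the detection limit of *Foxb1*. Of the 151 nuclei, 123 held exactly 2 *Foxb1* UMIs, 22 held 3, 1 held 4 and 5 held 5 or more, with a maximum of 8. Just outside the threshold were 424 nuclei that met the rest of the rule with exactly 1 *Foxb1* UMI. Their median depth was 6940.5 UMIs, against 8220 inside. At least 1 *Foxb1* UMI was seen in 5.26% of all 10923 glutamatergic nuclei, in 0.679% of 8692 GABAergic nuclei and in 0.298% of 1343 oligodendrocyte nuclei, at median depths of 7290, 7196.5 and 2387 UMIs. Oligodendrocytes are not known to use the gene and are given as a background; whether their UMIs came from free RNA, doublets or other sources was not tested. Of these nuclei 1011 were fasted and only 53 came from fed 3 and fed 4, which held 103 of the *Foxb1* neurons. In fed 3 and fed 4 the oligodendrocyte share was 1.89% (1 nucleus, 95% exact interval 0.0478% to 10.1%), so the background is poorly measured there. Summed *Foxb1* levels were 537, 382, 245 and 248 CPM in fed 1 to 4 and 274.5 and 257 CPM in the fasted libraries. The 2 libraries with the fewest nuclei had the highest values.

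As a share of the glutamatergic nuclei of each library, *Foxb1* neurons made up 0.270% of 2224 in fed 1, 0.410% of 1707 in fed 2, 2.23% of 2332 in fed 3 and 2.19% of 2325 in fed 4. In the fasted libraries they made up 1.59% of 1193 and 1.40% of 1142. Fed 1 and fed 2 were the lowest, fed 3 and fed 4 the highest, and both fasted libraries lay between them, so the groups overlapped. This depended on the threshold: with 1 or more *Foxb1* UMIs the shares were 3.10%, 3.63%, 6.05% and 5.98% in fed 1 to 4 and 6.96% and 7.09% in the fasted libraries, which then lay above all fed ones. The mean was 1.28% ± 1.082 (SD, n = 4 libraries) in the fed group and 1.497% ± 0.136 (SD, n = 2) in the fasted group. An exact permutation test over libraries could not give a p below 1 in 15 here, and over pools not below 1 in 3, so no test was made. Depth differed in the same direction: the median glutamatergic nucleus held 4988.5 and 5198 UMIs in fed 1 and fed 2 against 9303 and 9437 in fed 3 and fed 4. With each nucleus thinned to 2000 UMIs and the rule asking for 1 *Foxb1* UMI, the shares were 1.13%, 1.71%, 2.23% and 1.82% in fed 1 to 4 against 2.22% and 2.34% after the fast, and all 6 exact binomial intervals overlapped.

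**Figure D1:**
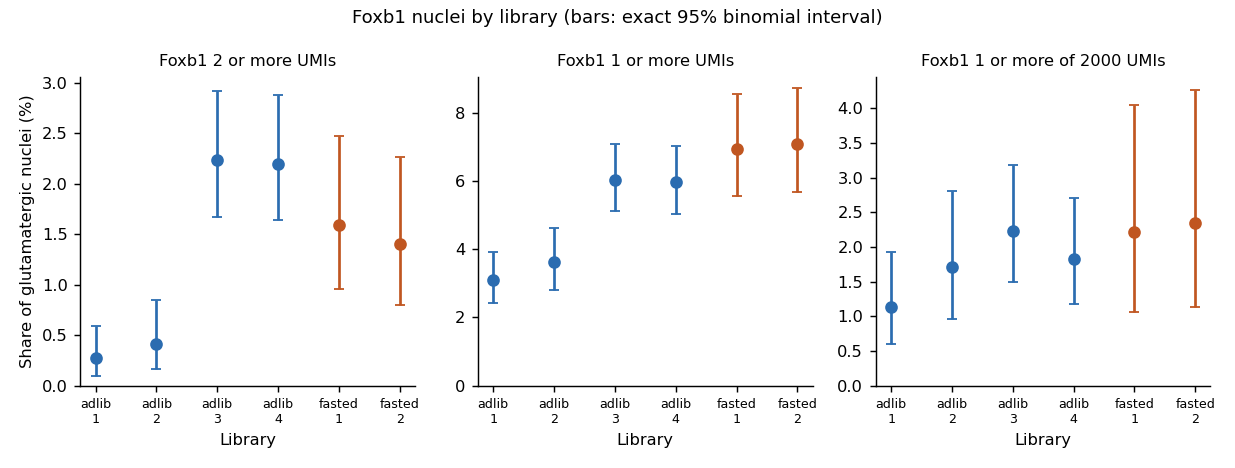
Share of *Foxb1* nuclei among glutamatergic nuclei (%, y axis) in each of the 6 libraries (x axis; blue fed, orange fasted) for 2 or more *Foxb1* UMIs, 1 or more, and 1 or more after thinning each nucleus to 2000 UMIs. Points are shares and bars exact 95% binomial intervals, which cover counting error only; fed 1 and fed 2 lie at 0.270% and 0.410% in the first panel, against 2.23% and 2.19% in fed 3 and fed 4, and the gap narrows in the third.

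The first comparison asked which genes set *Foxb1* neurons apart from other glutamatergic neurons of the same libraries. Counts were summed over the nuclei of each kind and pool and compared within pools. The transcription factor genes *Lhx1*, *Uncx*, *Sim1* and *Sall3* were higher in *Foxb1* neurons. *Lhx1*, a LIM homeobox gene on chromosome 11 (84518284-84525535, GRCm38), had 158, 54.6, 153 and 171 CPM in fed 1 to 4 and 173 and 159 CPM in fasted 1 and 2, against 20.1 to 36.7 CPM in the other glutamatergic nuclei of these libraries. Every library was above all of the others' values, with fed 2 lowest on 2 UMIs. The log2 fold change (log2FC) was 2.56 ± 0.17 (SE) with an adjusted p of 7.84e-47 in edgeR's quasi-likelihood test with Benjamini-Hochberg adjustment over 19837 genes. *Lhx1os*, a transcript that starts beside *Lhx1* on the opposite strand without overlapping it, was higher by a log2FC of 2.83 ± 0.23. Within fed 3 and fed 4, *Lhx1* was seen in 71.8% of *Foxb1* neurons, 13.05% of other glutamatergic nuclei and 1.89% of 53 oligodendrocyte nuclei, and after thinning each nucleus to 2000 UMIs in 31.1%, 3.93% and 1.92%. In the fasted libraries the shares were 60%, 17.4% and 1.88%, and thinned 25.7%, 6.47% and 1.005%.

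Of the 19837 genes tested, 2.33% were called higher and 3.92% lower in *Foxb1* neurons at an adjusted p of at most 0.05, which is 462 and 778 genes. Of the 462, 207 were higher in all 6 libraries, and of the 778, 598 were lower in all 6. Over all genes tested 376 were higher and 3634 lower in all 6, since a gene with no UMI in a small library counts as lower there, so both shares cannot be set against each other. The filter of 10 counts in 2 libraries was applied to both kinds together. Of the genes tested, 7173 reached it within *Foxb1* neurons, and of these 5.07% were called higher and 5.42% lower. The remaining 12664 reached it only with the other nuclei added, and 98 of them were called higher and 389 lower. Such genes are named beside the lists where they make up much of the count, and no list count or median that includes them is read as evidence about the list. In this comparison each list count below is to be set against the 2.33% higher and 3.92% lower over all genes tested. Some calls rested on 1 library: *Mgp*, a matrix protein gene picked out after its values were seen, had 260.5 CPM in fed 4, 1.96 CPM in fed 3 and 0 UMIs in the remaining libraries. DESeq2 called 215 higher and 214 lower. The genes described below as leading kept their direction in all 6 libraries, as their rule asked.

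In a list of 25 transcription factors of the mammillary and posterior hypothalamus, 24 were tested, 5 were higher and 7 lower. *Sim1* had 253, 136, 68.7 and 91.7 CPM in fed 1 to 4 and 188 and 128.5 CPM in the fasted libraries, against 33.1 to 60.2 CPM in other glutamatergic nuclei, and was higher in all 6 libraries (log2FC 1.33 ± 0.18, adjusted p = 2.35e-11, edgeR). The homeobox gene *Uncx* was higher by a log2FC of 1.61 ± 0.24 and the zinc finger gene *Sall3* by 1.31 ± 0.36, each in 5 of 6 libraries. *Lhx5* (log2FC 0.76 ± 0.33, adjusted p = 0.193, edgeR) and *Nkx2-1*, the factor that patterns the ventral hypothalamus (0.65 ± 0.24, adjusted p = 0.0864, edgeR), did not pass the threshold, although *Nkx2-1* had higher values in all 6 libraries.

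Of the 7 lower factors only *Tcf4*, with 155 UMIs, reached the filter within *Foxb1* neurons. *Irx3*, *Foxa1*, *Lmx1a*, *Nr4a2*, *Irx5* and *Six3*, with 0, 0, 1, 2, 1 and 7 UMIs in all, were tested only because the other nuclei hold them, as was *Sall3* among the higher ones. Of the 8 listed factors that reached it within *Foxb1* neurons 4 were higher and 1 lower. No UMI of *Irx3* or *Foxa1* was found in the 151 nuclei. Set against a floor of 3 UMIs over all *Foxb1* neurons, they were at least 2.45-fold and 2.16-fold lower than in other glutamatergic nuclei. *Foxa1* and *Lmx1a* are factors of the midbrain floor plate, and *Nr4a2* acts in dopamine neurons. With fed 3 and fed 4 left out, *Uncx* (log2FC 1.33, adjusted p = 0.131) was no longer called by edgeR, while *Lhx1* was called under every setting tried. *Barhl1*, *Barhl2* and *Foxa2* also had no UMI, but their levels elsewhere were too low for a bound. The list's median log2FC was -1.01, or -0.36 with the genes at 0 set to their bound, against -0.11 over all genes tested (-0.06 with bounds).

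**Figure D2:**
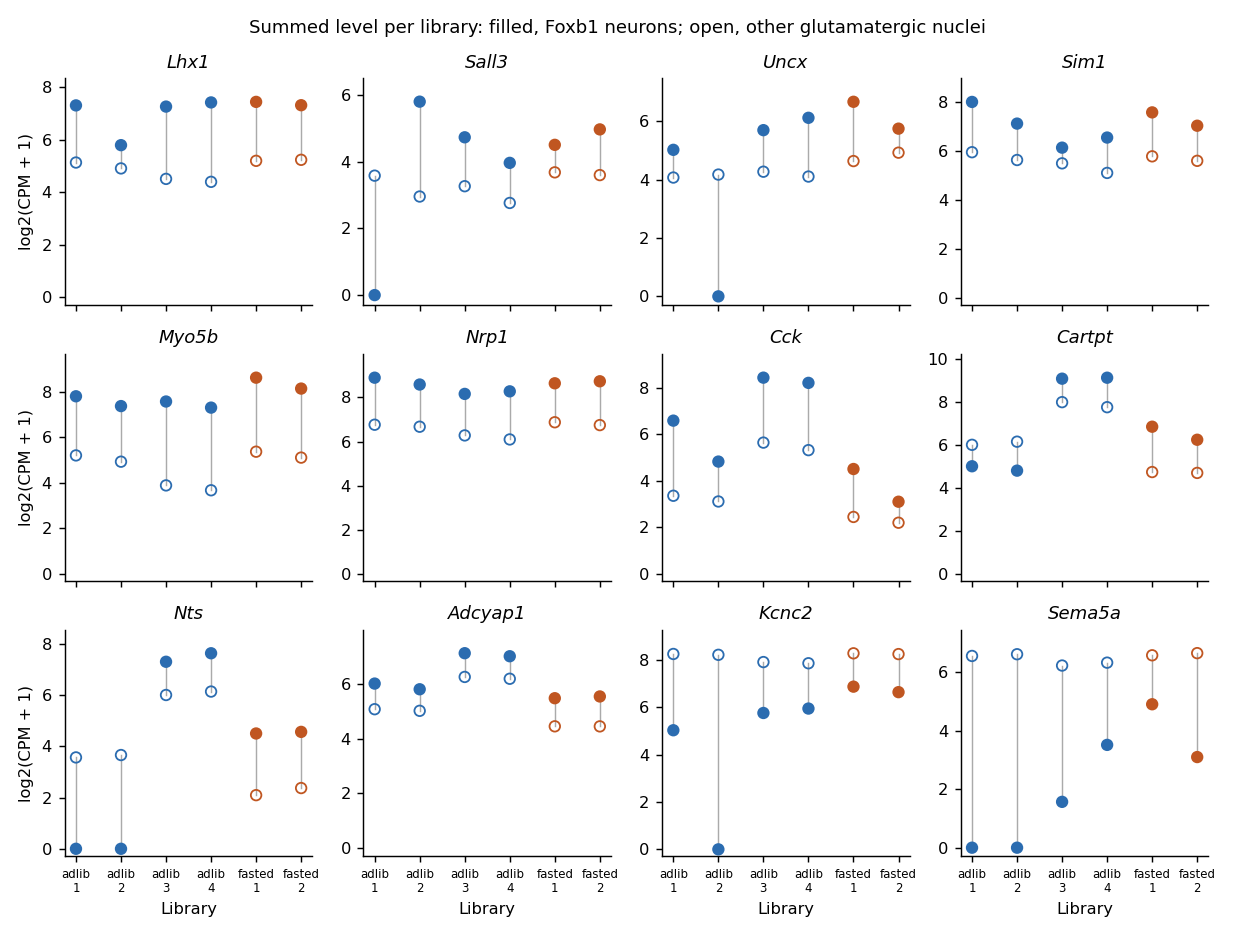
Level of 12 genes summed per library, as log2(CPM + 1) on the y axis, in *Foxb1* neurons (filled) and other glutamatergic nuclei (open) of the 6 libraries on the x axis (blue fed, orange fasted; no error bars, since each point is 1 library). *Lhx1*, *Sim1*, *Myo5b*, *Nrp1*, *Cck* and *Adcyap1* are above the open points in all 6 libraries, *Kcnc2* and *Sema5a* below them in all 6, and points at 0 are libraries with no UMI.

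By the rule for leading genes (mean of at least 50 CPM, same direction in all 6 libraries), *Myo5b* differed most among the higher genes. This gene, an unconventional myosin that carries recycling endosomes, had 221, 164, 188 and 156 CPM in fed 1 to 4 and 390 and 280 CPM in the fasted libraries, against 11.7 to 40.2 CPM in the others. No library came near the other nuclei's range, and the 2 fasted libraries had the highest values (log2FC between the kinds 3.34 ± 0.16, adjusted p = 5.44e-93, edgeR). *Rprm*, a p53 target linked to arrest of the cell cycle, had 221, 136, 228 and 281 CPM in fed 1 to 4 and 130 and 136 CPM in the fasted libraries, against 22.1 to 36.5 CPM (log2FC 2.74 ± 0.17). *Cpne9*, a calcium-dependent phospholipid-binding copine, ranged from 109 to 347 CPM against 30.1 to 47.0 CPM (2.67 ± 0.16).

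The other leading genes were *Tanc1*, a postsynaptic scaffold gene (log2FC 2.50 ± 0.17), *Mamdc2*, a matrix protein gene (2.35 ± 0.22), *Tgfb2*, a ligand of the transforming growth factor family (2.23 ± 0.25), *Lhfp* (2.15 ± 0.21), *Nxph4*, a neurexophilin that binds neurexins (2.14 ± 0.21), *Shisal1* (2.07 ± 0.24), *Rtn4rl1*, a receptor of the Nogo receptor family (2.04 ± 0.28), *Man2a1*, a Golgi mannosidase (2.01 ± 0.15), and *Nrp1*, a receptor for semaphorins (1.94 ± 0.14). *Lhfp*, *Tgfb2*, *Mamdc2*, *Cpne9*, *Man2a1* and *Myo5b* overlap other annotated transcripts on the opposite strand, and reads of such pairs could not be told apart here. The long noncoding transcript *B230323A14Rik* overlaps *Foxb1* on the opposite strand (chromosome 9, 69758740-69830845, against 69757710-69760940 for *Foxb1*). Its level of 277 to 569 CPM against 20.0 to 82.9 CPM is given with no test, because its reads may not be independent of those that chose the nuclei.

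**Figure D3:**
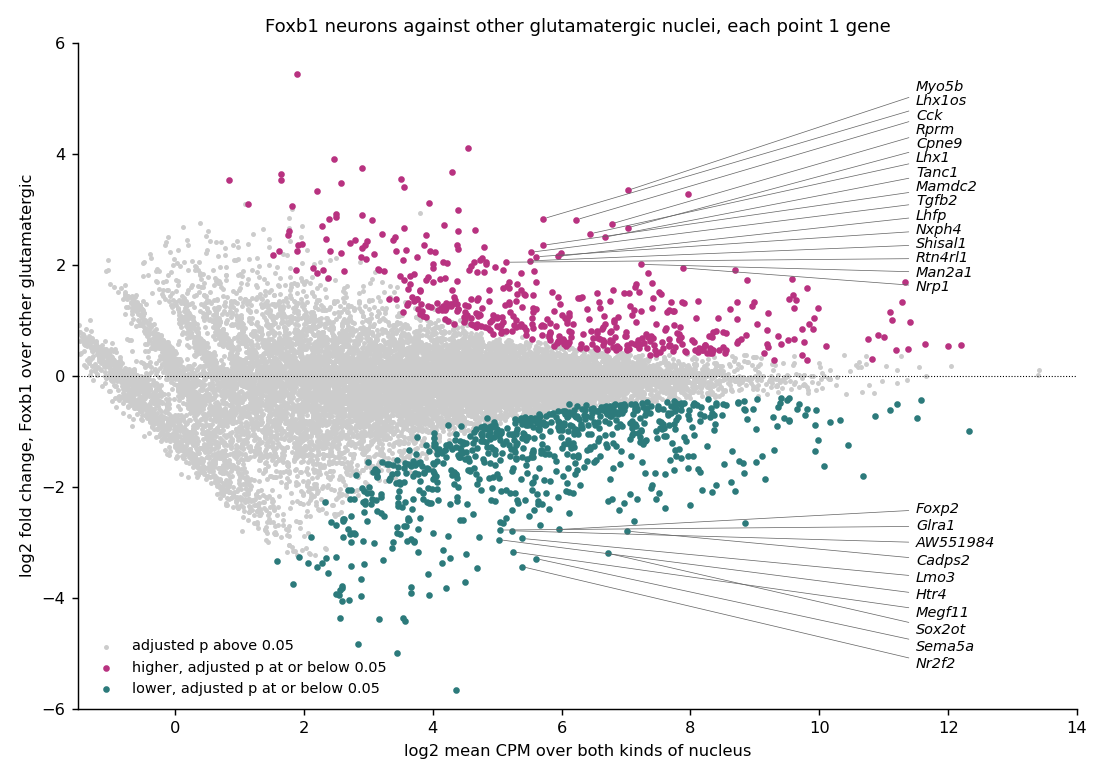
Each point is 1 gene of the 17875 with a UMI in both kinds of nucleus: log2 mean CPM on the x axis and log2 fold change of *Foxb1* neurons over other glutamatergic nuclei on the y axis, with genes past the threshold in pink (higher) and green (lower) and the 25 leading genes named. *Myo5b* lies at 3.34 and *Nr2f2* at -3.44; 22 genes lie outside the plotted range of levels.

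Among the leading genes that were lower, 2 were transcription factors of other hypothalamic neurons. *Nr2f2*, which encodes the nuclear receptor COUP-TFII, had 0, 27.3, 7.85 and 6.25 CPM in fed 1 to 4 and 7.22 and 15.1 CPM in the fasted libraries. The other glutamatergic nuclei had 46.6 to 104 CPM (log2FC -3.44 ± 0.33). On these few UMIs *Nr2f2* reached the filter only with the other nuclei added. *Foxp2*, a forkhead factor, had 0 to 27.3 CPM against 83.5 to 134 CPM (-2.77 ± 0.28). *Sema5a*, a guidance cue, had no UMI in fed 1 and fed 2 and 1.96 to 28.9 CPM elsewhere, against 73.8 to 99.4 CPM (-3.30 ± 0.33). Also among them were *Sox2ot* (-3.20 ± 0.25), a long transcript around *Sox2*, *Megf11* (-3.17 ± 0.36) and the serotonin receptor *Htr4* (-2.95 ± 0.36). The rest were *Lmo3*, a LIM-only cofactor (-2.93 ± 0.32), *Cadps2*, a protein of dense-core vesicle release (-2.80 ± 0.22), *AW551984* (-2.79 ± 0.32) and the glycine receptor subunit *Glra1* (-2.78 ± 0.33). *Sema5a* and *Htr4*, with 11 and 10 UMIs in all, also reached the filter only with the other nuclei added.

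The peptide genes of *Foxb1* neurons stood out in fed 3 and fed 4. *Cck*, which encodes cholecystokinin, had 94.8, 27.3, 343 and 294 CPM in fed 1 to 4 and 21.7 and 7.56 CPM in the fasted libraries, against 9.22, 7.62, 48.8, 38.8, 4.44 and 3.58 CPM in the other glutamatergic nuclei of the same libraries. It was above them in all 6 libraries (log2FC 2.81 ± 0.19, adjusted p = 7.33e-48, edgeR), but on 3, 1, 175, 141, 3 and 1 UMIs, and with fed 3 and fed 4 left out the log2FC of 2.18 had an adjusted p of 0.465 in edgeR. *Cck* was seen in 85 of 103 nuclei of fed 3 and fed 4, in 3 of 13 of fed 1 and fed 2 and in 4 of 35 fasted nuclei. Fed 3 and fed 4 also had the largest share of UMIs in ribosomal protein genes (1.59% and 1.63%, against 0.243% to 0.461% elsewhere), and the part of that difference in the peptide values was not tested. Since the kinds drew unequally on the libraries, shares of nuclei with a *Cck* UMI were compared within fed 3 and fed 4, where they were 82.5% of *Foxb1* neurons, 17.1% of other glutamatergic nuclei and 5.66% of 53 oligodendrocyte nuclei (median depths 8847, 9422 and 5308 UMIs), and after thinning to 2000 UMIs 45.6%, 6.83% and 1.92%. In the fasted libraries they were 11.4%, 2.81% and 0.594% (median depths 7316, 7461 and 2509 UMIs), and thinned 2.86%, 0.884% and 0.503%, the first of these being 1 nucleus of 35.

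*Cartpt*, the gene of the cocaine- and amphetamine-regulated transcript, had 31.6, 27.3, 547 and 565 CPM in fed 1 to 4 and 116 and 75.6 CPM in the fasted libraries. The other glutamatergic nuclei had 64.0, 71.0, 256, 218, 26.0 and 25.3 CPM in the same order, so that *Foxb1* neurons were higher in fed 3, fed 4 and both fasted libraries and lower in fed 1 and fed 2 (log2FC 1.22 ± 0.16). *Nts* (neurotensin) had 0, 0, 157, 198, 21.7 and 22.7 CPM in the 6 libraries and *Npy* (neuropeptide Y) 0, 0, 122, 154, 14.5 and 15.1 CPM. Both lay above the other nuclei in fed 3, fed 4 and both fasted libraries and had no UMI in fed 1 and fed 2 (log2FC 1.46 ± 0.20 and 1.91 ± 0.23). DESeq2 did not call *Cartpt*, *Nts* or *Npy* (adjusted p = 1, 0.279 and 0.443 in DESeq2). *Adcyap1*, which encodes PACAP, was higher in all 6 libraries by a smaller amount, at 43.3 to 137 CPM against 20.8 to 74.9 CPM (0.89 ± 0.19, with an adjusted p of 0.109 in DESeq2).

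Of the 31 peptide and secreted factor genes on the list, all tested, 6 were higher (*Cck*, *Npy*, *Nts*, *Cartpt*, *Bdnf* and *Adcyap1*) and 11 lower. The median log2FC was -1.46, or -1.001 with the genes at 0 set to their bound. Called lower were *Grp*, *Pdyn*, *Trh*, *Oxt*, *Pomc*, *Hcrt*, *Avp*, *Pmch*, *Sst*, *Tac1* and *Tac2*, peptides of other hypothalamic neurons. *Grp* and *Pdyn* had 1 and 2 UMIs in all, and these, *Trh*, *Pomc* and *Tac2* reached the filter only with the other nuclei added. Of the 17 peptide genes that reached it within *Foxb1* neurons, 6 were higher and 6 lower. With fed 3 and fed 4 left out, *Sst* had a log2FC of 0.32. *Tac1*, which encodes substance P, had 92.2 and 83.4 CPM in fed 3 and fed 4, where the others had 283 and 279 CPM, and 0 to 15.1 CPM in the remaining libraries, where they had 31.1 to 44.5 CPM (-1.71 ± 0.21). *Oxt* (oxytocin), abundant in the other glutamatergic nuclei, had 239 and 200 CPM in the *Foxb1* neurons of fed 3 and fed 4 and at most 31.6 CPM in the remaining libraries. Within fed 3 and fed 4 an *Oxt* UMI was seen in 75.7% of *Foxb1* neurons, 80.3% of other glutamatergic nuclei and 64.2% of 53 oligodendrocyte nuclei, and after thinning in 27.2%, 33.8% and 32.7%. The thinned share of *Foxb1* neurons was no higher than that of oligodendrocyte nuclei, which do not make the peptide. Where these UMIs came from was not tested, and they are not read as expression of *Oxt*. *Tac2* UMIs came mainly from 1 nucleus, which held 12 of 17.

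Of 13 transmitter genes tested, none was called higher and 1 was called lower: *Ddc*, the enzyme that makes dopamine and serotonin from their precursors. Over all genes tested 2.33% were higher and 3.92% lower, so these counts are close to that background, and *Ddc*, with 12 UMIs, was rare in *Foxb1* neurons. *Slc17a6*, which the rule used, had 221, 300.2, 398 and 361 CPM in fed 1 to 4 and 246 and 219 CPM in the fasted libraries, against 190 to 280 CPM in the others. No UMI of the other vesicular glutamate transporters, *Slc17a7* and *Slc17a8*, was found. *Slc17a8* had only 2.16 CPM in other glutamatergic nuclei, under the *Foxb1* neurons' floor of 2.26 CPM, and *Slc17a7* was too rare to be tested. No bound could be set for either. Among 9 calcium-binding proteins *Pvalb* (parvalbumin; log2FC 2.22 ± 0.32), *Cabp1* and *Calb1* (calbindin) were higher and *Calb2* (calretinin; -1.90 ± 0.24) and *Necab1* lower. *Pvalb* had no UMI in fed 1 and fed 2, 51.0 and 70.8 CPM in fed 3 and fed 4, and 14.4 and 22.7 CPM in the fasted libraries. *Calb1* had 63.2 to 258 CPM against 93.8 to 168 CPM and a log2FC of only 0.56 ± 0.15. Of the 7 calcium-binding genes that reached the filter within *Foxb1* neurons 3 were higher and 1 lower. *Necab1* reached it only with the other nuclei added.

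Of 37 ion channel genes of firing, 3 were higher and 8 lower, with a median log2FC of -0.03. Over all genes tested 2.33% were higher and 3.92% lower. Of the 31 channel genes that reached the filter within *Foxb1* neurons 3 were higher and 7 lower, where 5.07% and 5.42% of all such genes were. *Kcnc2*, a fast delayed rectifier of the Kv3 family, had 31.6, 0, 53.0 and 60.4 CPM in fed 1 to 4 and 116 and 98.3 CPM in the fasted libraries, against 230 to 308 CPM in the others (log2FC -1.98 ± 0.18, adjusted p = 1.86e-25, edgeR). *Kcnb2* of the Kv2 family (-1.86 ± 0.15), *Kcnd2* of the A-type Kv4 family (-1.35 ± 0.14) and the R-type calcium channel *Cacna1e* (-1.26 ± 0.15) were below the other nuclei in all 6 libraries. *Kcnn3*, *Kcnt2*, *Kcnq3* and *Kcnd3* were the other lower channels. Of these *Kcnn3* reached the filter only with the other nuclei added. The sodium channel subunit *Scn1a* (0.50 ± 0.14) and the inward rectifier *Kcnj3* (0.46) were higher. *Scn1a* had 284 to 464 CPM in *Foxb1* neurons and 256 to 266 CPM in the others.

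Of 42 receptors for hormones and feeding peptides, *Vipr2*, a receptor for vasoactive intestinal peptide and PACAP, was higher (log2FC 2.26 ± 0.47, on 24 UMIs in all) and 9 were lower. The median was -0.90, or -0.71 with the genes at 0 set to their bound. The calcitonin receptor *Calcr* and the melanocortin receptor *Mc4r* were tested only because the other nuclei hold them. They had no UMI in any *Foxb1* neuron, at least 6.91-fold and 3.54-fold below other glutamatergic nuclei when set against the floor of 3 UMIs. The oestrogen receptor *Esr1* had 9 UMIs in all (-2.26 ± 0.41) and the insulin-like growth factor receptor *Igf1r* a log2FC of -0.82 ± 0.22, and both were below the others in all 6 libraries. *Oprk1*, *Hcrtr2*, *Thrb* and *Nr3c1* were lower too. Of the 9 lower genes 5 (*Calcr*, *Mc4r*, *Esr1*, *Oprk1* and *Hcrtr2*) reached the filter only with the other nuclei added, as did *Vipr2*, and of the 11 receptor genes that reached it within *Foxb1* neurons none was higher and 4 were lower. The leptin receptor *Lepr* (-0.15 ± 0.33, adjusted p = 0.980, edgeR) and the insulin receptor *Insr* (-0.50 ± 0.19, adjusted p = 0.126, edgeR) did not pass the test.

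Of 25 receptors of amines, acetylcholine and cannabinoids, 5 were higher: *Drd3* (log2FC 1.94 ± 0.41), *Htr2a* (1.48 ± 0.26), *Adra1b* (1.31), *Htr7* (0.62) and *Chrm3* (0.52 ± 0.13). *Htr2a*, an excitatory serotonin receptor, had 63.2, 136, 54.9 and 50.01 CPM in fed 1 to 4 and 28.9 and 60.5 CPM in the fasted libraries, above the 17.9 to 22.7 CPM of the other nuclei in every library. Lower were *Htr4*, the cannabinoid receptor *Cnr1* (-2.52 ± 0.28), *Chrm2* (-2.41 ± 0.29), *Htr1b*, *Hrh1* and *Htr2c* (-1.08). All of these but *Htr2c* reached the filter only with the other nuclei added, as did *Drd3*, and of the 6 that reached it within *Foxb1* neurons 4 were higher and 1 lower. *Cnr1* had no UMI in 3 libraries and 14.5 to 22.9 CPM in the rest, against 65.9 to 102 CPM.

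Of 50 axon guidance and adhesion genes 15 were higher and 12 lower, with a median log2FC of 0.02. Both neuropilins, coreceptors of semaphorins, were higher: *Nrp1* with 474, 382, 285 and 308 CPM in fed 1 to 4 and 397 and 423 CPM in the fasted libraries against 67.4 to 116 CPM, and *Nrp2* with 121 to 347 CPM against 68.2 to 94.4 CPM (log2FC 1.19 ± 0.15). The ephrin receptor *Epha7* (1.54 ± 0.16), the cadherin *Cdh11* (1.18 ± 0.14), the contactin *Cntn5* (0.96 ± 0.13) and the Slit receptor *Robo2* (0.94 ± 0.13) were above the others in all 6 libraries. Besides *Sema5a*, the Slit ligand *Slit3* (-2.02 ± 0.18), the netrin receptor *Unc5d* (-1.91 ± 0.15) and the ephrin receptor *Epha5* (-1.55 ± 0.15) were below the others in all 6. Of the 37 listed genes that reached the filter within *Foxb1* neurons, 14 were higher and 10 lower; *Sema5a* (11 UMIs), *Plxnc1* and *Epha8* reached it only with the other nuclei added.

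The study named its *Foxb1* cell groups after marker genes, and 20 of these were followed here. As that list was picked on data that include these samples, its direction is no independent evidence: 13 of 20 were higher and 2 lower, with a median log2FC of 1.70, and of the 11 that reached the filter within *Foxb1* neurons 8 were higher and 1 lower. *Myo5b* was seen in 99 of 151 nuclei, *Nxph4* in 90 and *Adamtsl1* in 82. Their order differed between libraries. In fed 3 and fed 4 *Nxph4* was seen in 74.8% of nuclei, *Myo5b* in 65.0% and *Adamtsl1* in 54.4%. In fed 1 and fed 2 the shares were 15.4%, 53.8% and 61.5% of 13 nuclei, and in the fasted libraries 31.4%, 71.4% and 51.4% of 35. Over all libraries the others were seen in fewer nuclei, such as *Col19a1* in 40, *Nts* in 40, *Ctxn3* in 37, *Gpc5* in 34, *Fign* in 33, *Pvalb* in 32, *Pde11a* and *Sall3* in 21 each, *Ebf3* in 19, *Postn* in 14 and *Dkk2* in 7. *Gpc5* was lower than in other glutamatergic nuclei (73.6 CPM against 318 CPM as means of 6 libraries, log2FC -2.39 ± 0.19).

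The members fell into 4 subgroups when clustered on variable genes centred within each library. These clusters are a description, and their leading genes were not tested. Subgroup 1 held 51 nuclei from all 6 libraries (4, 3, 15 and 16 in fed 1 to 4, 9 and 4 in the fasted libraries) and was led by *Cntn5*, *Adamtsl1*, *Pcdh15* and *Rorb*. *Adamtsl1* was seen in 90.2% of its nuclei and in 36% of the rest, and *Col19a1* in 58.8% and 10.0%. Subgroup 2 held 35 nuclei (0, 3, 14, 11, 2 and 5 in the same order) and was led by *Erbb4*, *Nxph1*, *Grid1* and *Cacna2d1*. The vesicle protein gene *Synpr* was seen in 71.4% of its nuclei and 1.72% of the rest, *Ebf3* in 51.4% of its nuclei, and *Myo5b* in only 22.9%.

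Subgroup 3 held 34 nuclei, none of them from fed 1 or fed 2 (14, 11, 4 and 5 in the other 4 libraries). It was led by *Gm32647*, the muscarinic receptor gene *Chrm3*, *Lingo2* and *Adarb2*. *Chrm3* was seen in 94.1% of its nuclei and 48.7% of the rest, and *Myo5b* in all 34. Subgroup 4 held 31 nuclei (2, 1, 9, 13, 4 and 2) and was led by the adhesion genes *Alcam* and *Kirrel3*, by *Epha6* and by *Plxdc2*. *Nts* was seen in 77.4% of its nuclei and 13.3% of the rest, *Col25a1* in 96.8% and 30%, and *Pvalb* in 41.9%. *Lhx1* (in 62.7% to 74.2% of nuclei) and *Sim1* (45.2% to 56.9%) did not separate the subgroups. Subgroup 1 was shallower than the others, with a median of 7096 UMIs per nucleus against 8433 to 8800. Counted per nucleus, *Nts* and *Ctxn3* were seen together in 23 of the 40 *Nts* nuclei, and none of these 40 held a UMI of *Ebf3*, which was seen in 19 nuclei. Most of the *Nts* nuclei (37) and *Ctxn3* nuclei (34) came from fed 3 and fed 4. Within these libraries *Ctxn3* was seen in 22 of the 37 *Nts* nuclei (59.5%) and in 12 of the 66 others (18.2%), and *Ebf3* in none of the 37 and in 13 of the 66 (19.7%), given as a description with no test.

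**Figure D4:**
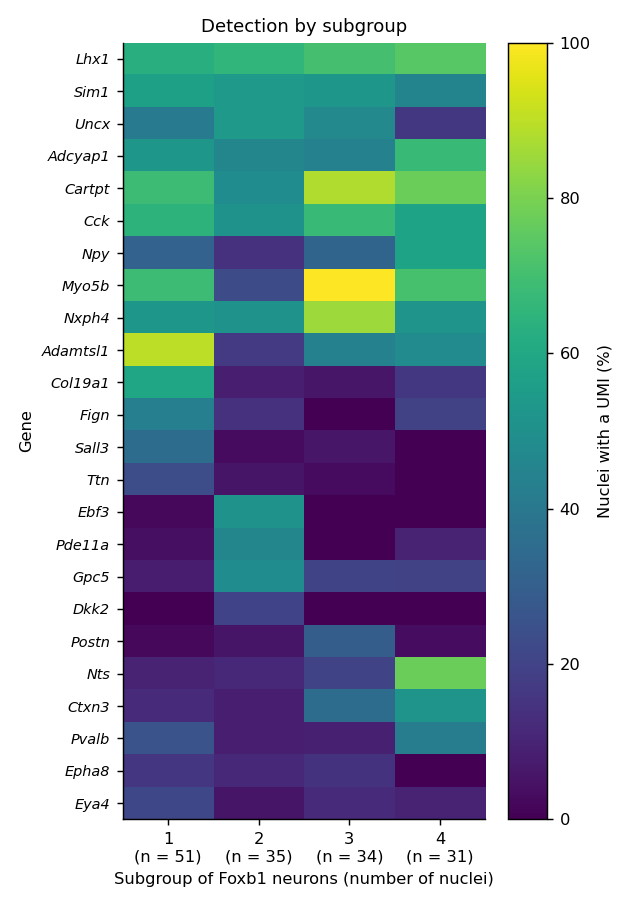
Share of nuclei with at least 1 UMI (%, colour) for 24 genes (rows) in the 4 subgroups of *Foxb1* neurons (columns, n nuclei). *Lhx1* and *Sim1* are of similar colour in all columns, *Adamtsl1* and *Col19a1* are brightest in subgroup 1, *Ebf3* in subgroup 2, *Myo5b* in subgroup 3 and *Nts* in subgroup 4, where 77.4% of nuclei hold a UMI.

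The same comparison was made with 2 named kinds of glutamatergic nucleus. Against nuclei of the ventromedial nucleus (2 or more UMIs of *Fezf1* and *Nr5a1* together), 5.88% of 12334 genes were called higher and 8.26% lower. Among the mammillary transcription factors 7 of 12 tested were higher, among them *Lhx1* (log2FC 4.41 ± 0.22), *Ebf3*, *Uncx*, *Sim1*, *Sall3* and *Lhx5*, and *Six3* was lower. Of the ventromedial markers *Gpr149* was lower by 3.32 on the log2 scale and *Slit3* by 3.00, while *Sox14* had no UMI and was at least 12.2-fold lower. *Gpr149*, *Sox14*, *Six3* and, among the higher genes, *Sall3* reached the filter only with the ventromedial nuclei added. Against nuclei with 2 or more UMIs of *Sim1* and *Otp* together, 5.84% of 13634 genes were called, 2.48% higher and 3.36% lower. In that comparison *Lhx1* (1.90 ± 0.15) and *Nkx2-1* (1.32 ± 0.29) were higher, and *Uncx* was not called (0.40 ± 0.22, adjusted p = 0.424, edgeR). The paraventricular genes *Trh*, *Avp*, *Oxt* and *Pou3f2* were lower. Of these *Trh* and *Pou3f2* (14 UMIs in all) reached the filter only with the *Sim1* or *Otp* nuclei added. *Otp* itself had 3 UMIs in all *Foxb1* neurons. *Cck*, *Cartpt*, *Npy*, *Nts*, *Bdnf* and *Adcyap1* were higher in both comparisons, which share the *Foxb1* neurons with the first one.

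Markers of other cells were checked in the same nuclei. Within fed 3 and fed 4 the neuronal gene *Snap25* was seen in 98.1% of *Foxb1* neurons, 97.5% of other glutamatergic nuclei and 28.3% of 53 oligodendrocyte nuclei, and after thinning in 78.6%, 66.2% and 7.69%. In the fasted libraries the thinned shares were 80%, 69.9% and 7.92%. The 8 oligodendrocyte markers summed to 31.6, 27.3, 102 and 97.9 CPM in fed 1 to 4 and 65.0 and 52.9 CPM in the fasted libraries, below the other glutamatergic nuclei of the same library in all 6 (99.2 to 264 CPM), with *Mbp* the most abundant at 52 UMIs. Of these 8, 1 was called lower. The 8 astrocyte markers summed to 94.8, 136, 104, 91.7, 159 and 204 CPM from fed 1 to fasted 2, above the other glutamatergic nuclei (122, 123, 59.8, 56.8, 134 and 143 CPM) in 5 of 6 libraries. Their most abundant gene was *Slc1a2* with 83 UMIs, *Aqp4* and *Fgfr3* had no UMI, and *Slc1a2* and *Slc4a4* were called higher, but with 3 or more *Foxb1* UMIs required *Slc1a2* had a log2FC of -0.26. Microglial markers summed to 30.2 to 81.9 CPM, above the other nuclei in 4 of 6 libraries, with *Tmem119* at 0, and none was called. Of the endothelial and mural markers 4 of 6 had no UMI and none was called, and of the tanycyte and ependymal markers 3 of 6 had none and 2 were called lower (*Dnah12* and *Col23a1*, on 1 and 7 UMIs). Among markers of oligodendrocyte precursors *Vcan* alone was lower, on 3 UMIs, of 6 tested, and no GABAergic marker of 4 tested was called. Of 7 neuronal genes the neurofilaments *Nefm* and *Nefl* were higher, and *Nefl* had a log2FC of -0.033 with fed 3 and fed 4 left out. The part of RNA from other cells in the results was not tested. Thalamic and subthalamic genes were 2 higher (*Ntng1* among them) and 2 lower (*Calb2* and *Tcf7l2*) of 8 tested, with *Slc17a7*, *Gbx2* and *Barhl1* at 0. Paraventricular genes were 1 higher (*Sim1*) and 3 lower of 7, and tuberomammillary and lateral hypothalamic genes 2 lower of 6.

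Genes that respond to activity, hormones and time of day were counted in the same comparison. Of 30 immediate early genes *Nr4a1* (log2FC 1.25 ± 0.32) and *Bdnf* were higher and *Nr4a2*, *Nptx2* and *1700016P03Rik* lower, the last 3 and *Nr4a1* being rare genes that reached the filter only with the other nuclei added. Of the 7 immediate early genes that reached it within *Foxb1* neurons 1 was higher. None of 17 glucocorticoid-responsive genes and none of 17 Foxo target and fasting genes was called. With 2.33% of all genes higher and 3.92% lower, no call in a list of 17 is close to that background. Of 17 clock genes, *Bhlhe40* (1.30 ± 0.41), *Hlf* (0.96 ± 0.27), *Rorb* (0.56 ± 0.12) and *Nr1d2* were higher and *Npas2* and *Per3* lower. *Bhlhe40* and *Npas2* reached the filter only with the other nuclei added. Of the 9 clock genes that reached it within *Foxb1* neurons 3 were higher and 1 lower. For *Nr1d2* 1 nucleus held 30 of 95 UMIs. *Rorb* ranged from 160 to 537 CPM in *Foxb1* neurons and was above the other nuclei in all 6 libraries.

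The second comparison asked what a 16 h fast changed within *Foxb1* neurons. With 2 fed pools and 1 fasted pool, and with the pairing of the fed libraries unknown, no gene of 7173 tested passed an adjusted p of 0.05 (0% called; edgeR, lowest adjusted p = 0.0892). That count rests on keeping the largest p over the 3 pairings: fed 1 with 2 alone also called 0, but fed 1 with 3 called 1424 and fed 1 with 4 called 1348, and it was 265 with the libraries as separate samples, 82 with no filter on low counts and 54 without marked doublets. At an unadjusted p under 0.05 there were 29 higher and 484 lower genes in edgeR, and DESeq2 called 0 with 75 at that level. Both fasted libraries were above all 4 fed ones for 9.34% of the genes and below them for 6.96%. The filter on counts was not even between the groups. In *Foxb1* neurons 1 UMI was worth 1.96 and 2.08 CPM in fed 3 and fed 4 but 7.22 and 7.56 CPM in the fasted libraries. Genes high in fed 3 and fed 4 were thus admitted at lower levels than genes high only after the fast. The numbers of higher and lower genes are not set against each other for that reason. By the rule for fasting, the 10 genes with the lowest log2FC were the chaperone gene *Hspa8*, the respiratory chain genes *Ndufb8*, *Ndufc2*, *Ndufa4* and *Uqcc2*, *Chchd2*, the translation factor gene *Eef1b2*, *Enho*, and the peptide genes *Penk* and *Cck*.

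*Hspa8* had 63.2, 54.6, 420 and 488 CPM in fed 1 to 4 and 14.5 and 7.56 CPM in the fasted libraries (log2FC -4.58 ± 1.10, adjusted p = 0.166, edgeR). Fed 3 and fed 4 were far above fed 1 and fed 2, and the fasted libraries lowest. The other glutamatergic nuclei also had their highest values in fed 3 and fed 4 and their lowest in the fasted libraries, with 55.5, 63.4, 435, 463, 29.6 and 33.3 CPM from fed 1 to fasted 2. The share of UMIs in ribosomal protein genes did too, at 0.319%, 0.461%, 1.59% and 1.63% in the *Foxb1* neurons of fed 1 to 4 and 0.266% and 0.243% in the fasted libraries. The part of that library difference in the fasting values was not tested. *Cck* had a log2FC of -3.76 ± 1.02 between fasted and fed (adjusted p = 0.181, edgeR). Of 17 peptide genes tested 16 had a negative log2FC, with a median of -2.56 (-2.29 with bounds) against -0.01 over all genes tested. A gene could reach the filter through fed 3 and fed 4 alone, as *Cck* did. The count and the median therefore depend on which genes were admitted and are not read as evidence about the list. Both fasted libraries lay below all fed ones for 6 of the 17 in *Foxb1* neurons and for 16 of the 17 in other glutamatergic nuclei, where this held for 1423 of all 7173 genes.

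**Figure D5:**
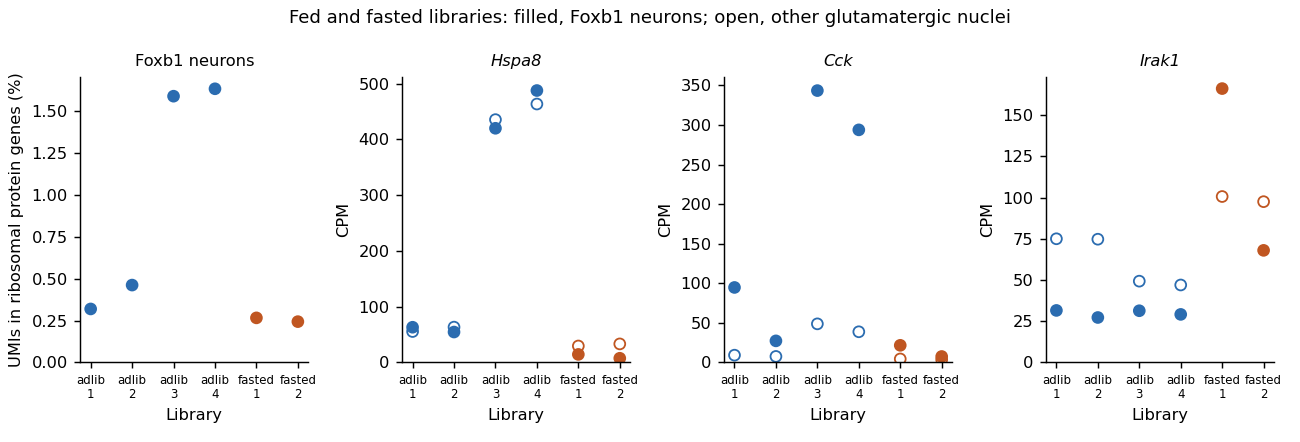
Share of UMIs in ribosomal protein genes (%) in *Foxb1* neurons, and CPM of *Hspa8*, *Cck* and *Irak1* in *Foxb1* neurons (filled) and other glutamatergic nuclei (open), by library (x axis; blue fed, orange fasted; each point is 1 library, without error bars). Ribosomal share, *Hspa8* and *Cck* are highest in fed 3 and fed 4, and *Irak1* is higher in both fasted libraries (166 and 68.0 CPM) than in the 4 fed ones (27.3 to 31.6 CPM).

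Both fasted libraries were above all 4 fed ones for abundant and for rare genes, none past the threshold. The neuronal noncoding transcript *Meg3* had 7707, 8434, 11440 and 10950 CPM in fed 1 to 4 and 15970 and 15370 CPM in the fasted libraries (log2FC 0.74 ± 0.45, adjusted p = 0.938, edgeR), and *Snhg11* 8325 to 9412 CPM against 14870 and 15590 CPM (0.79 ± 0.45, adjusted p = 0.880, edgeR). Both also had their highest values in the fasted libraries in other glutamatergic nuclei. Of 31 channel genes tested 7 lay above all fed libraries, where this held for 9.34% of all genes tested (670 of 7173), and in other glutamatergic nuclei 16 of the 31 did, against 2321 of the 7173. *Kcnq3*, a potassium channel gene among the 7, had 156 to 169 CPM fed and 339.5 and 325 CPM fasted (1.08 ± 0.69, adjusted p = 0.982, edgeR). The genes that the rule named, those with the largest log2FC, had few UMIs. *Irak1*, a kinase of interleukin 1 receptor signalling, had 31.6, 27.3, 31.4 and 29.2 CPM in fed 1 to 4 and 166 and 68.0 CPM in the fasted libraries (log2FC 2.01 ± 0.74, adjusted p = 0.390, edgeR), on 1, 1, 16, 14, 23 and 9 UMIs. *Tafa2*, a secreted chemokine-like factor, had 0, 0, 27.5 and 12.5 CPM against 65.0 and 113 CPM (2.38 ± 0.75, adjusted p = 0.242, edgeR). The rule also named *Zfp346*, *Marchf4*, *4930578G10Rik*, *Slc44a5*, *Zfp783*, *E130102H24Rik*, *Hmcn1* and *Arhgap17*, none of which passed the threshold. *Lhx1* (0.09 ± 0.26), *Nrp1* (0.25 ± 0.67) and *Cntn5* (-0.11 ± 0.53) had a log2FC close to 0, with wide errors for *Nrp1* and *Cntn5*.

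*Zbtb16*, a zinc finger factor induced by glucocorticoids, was too rare in *Foxb1* neurons to be tested, with 1, 4, 7, 10, 8 and 8 UMIs in the 6 libraries. Its level was 31.6, 109, 13.7 and 20.8 CPM in fed 1 to 4 and 57.8 and 60.5 CPM in the fasted libraries, so the groups overlapped through fed 2. The other glutamatergic nuclei had 14.5 to 16.6 CPM when fed, against 71.0 and 65.1 CPM when fasted. Over the 575 nuclei with 1 or more *Foxb1* UMIs, *Zbtb16* had 19.4, 17.8, 16.6 and 21.1 CPM in fed 1 to 4 and 64.5 and 53.5 CPM in the fasted libraries, with no overlap between the groups. The log2FC there was 1.56 ± 0.44, with an adjusted p of 1 in edgeR. In the fasted libraries it was seen in 34.3% of *Foxb1* neurons and 52.2% of oligodendrocyte nuclei (thinned 17.1% and 42.0%), and in fed 3 and fed 4 in 15.5% of *Foxb1* neurons and in 0 of 53 oligodendrocyte nuclei (upper limit of the 95% exact interval 6.72%). The part of RNA from other cells in these values was not tested. The immediate early gene *Fos* had 0, 0, 7, 4, 1 and 1 UMIs, too few to compare.

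The third comparison asked whether the fasted-to-fed difference in *Foxb1* neurons differed from that in other glutamatergic neurons. No gene of 19837 passed (0% called; edgeR, 108 higher and 205 lower at an unadjusted p under 0.05, and DESeq2 also called 0). The lowest p-values by direction went to *Pard3b*, *Gm32647*, *Cfl1*, *Mvb12a* and *Chp1*, and to *Cpne9*, *Pde1a*, *Nefm* and *mt-Nd1*. *mt-Nd1* had no UMI in the fasted *Foxb1* neurons, and its levels in other glutamatergic nuclei were also highest in fed 3 and fed 4.

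In the 424 nuclei with exactly 1 *Foxb1* UMI, which the rule left out, the mean over libraries was above that of other glutamatergic nuclei for all 15 leading higher genes and below it for all 10 leading lower genes. These 25 genes were picked for their difference between the kinds, so how far these nuclei lay from *Foxb1* neurons cannot be read from them. *Lhx1* had 146 CPM ± 28.7 (SD, n = 6 libraries) in these nuclei, against 145 CPM ± 44.9 in *Foxb1* neurons and 29.6 CPM ± 7.22 in the others.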

How the data were processed

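The authors' deposited files hold raw counts, as UMIs per gene and barcode, in 6 libraries of 31757655 to 59940795 UMIs, made with Cell Ranger 5.0.1 per the submitters' processing notes. GRCm38 coordinates were used. Intervals and floors of 3 counts cover counting error only. The members and gene lists were chosen with earlier results of these data known.

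UMIs were summed per kind of nucleus and pool and tested with edgeR 4.0.16 (quasi-likelihood test, Benjamini-Hochberg adjustment, R 4.3.3, limma 3.58.1). Since the labels do not say which fed libraries share a pool, each of the 3 possible pairings was fitted and the largest p kept, and SE is the size of the log2FC over the square root of F. A gene needed at least 10 counts in at least 2 libraries. Whether the libraries are separate animals is known only as pools. In the fasting comparison p-values measure the spread between pools. In the comparisons between kinds and in the third comparison, pool was a block. Their p-values measure how much the difference between kinds varied from pool to pool. With so few pools, edgeR moderates the spread of each gene by that of all genes tested, so very small p-values lean on that step. Some genes are not reported here. Scripts were tested on simulated data. Alternatives were DESeq2 1.42.0, other scaling, no filter, single pairings, separate libraries, other *Foxb1* thresholds, doublets removed, thinning to 2000 UMIs and each library left out.

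Leading genes had an adjusted p of at most 0.05, the same direction in all 6 libraries and a mean of at least 50 CPM, the 15 highest and 10 lowest log2FC being named without unnamed gene models. For fasting, the 10 highest and lowest log2FC were named among genes of at least 50 CPM, not ribosomal or mitochondrial, with both fasted libraries outside the fed range. For the third comparison up to 5 genes in each direction were named, by lowest p. Genes of 26 lists were named by abundance or size of change. The doublet score was the share of simulated doublets among the nearest neighbours of a nucleus, and the top 5% of each library were marked. Subgroups came from Leiden clustering in scanpy 1.11.5 on 1500 variable genes, 20 components and 15 neighbours at resolution 0.5, with numpy 2.4.6 and scipy 1.17.1.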

Additional observations from a re-analysis of the deposited data

Results flagged for a closer look

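*Lhx1* in the fed libraries had 1 library apart from the others: fed 2 lay at 54.6 CPM and the other 3 between 153 and 171 CPM, and the gap took up 0.847 of the range, above Dixon's critical value for 4 samples. The value rests on 2 UMIs in 7 nuclei. In all 55 sets of fed values were tested in this way, and chance marks about 1 in 20.

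Outside the comparisons stood 54 nuclei with 2 or more *Foxb1* UMIs and no *Slc17a6* UMI (11, 3, 3 and 3 in fed 1 to 4, 15 and 19 in the fasted libraries), which the rule left out.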

How the results depend on the processing

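Between *Foxb1* and other glutamatergic neurons, 1240 genes were called. DESeq2 called 429, the pairings fed 1 with 3 and fed 1 with 4 taken alone 2061 and 2078, at least 1 *Foxb1* UMI 2888, at least 3 UMIs 211, thinning 400, and leaving out 1 library 707 to 1274 (lowest without fed 4, 738 without fed 3). Without fed 3 and fed 4, chosen after seeing the data, 223 were called. Against ventromedial nuclei (1744 calls) DESeq2 gave 511 and leaving out 1 library 1033 to 1545; against *Sim1* or *Otp* nuclei (796) these were 200 and 448 to 735, lowest without fed 3 or fed 4. Fasting had 0 calls, and 0 with any library left out, but 82 with no filter, 265 with separate libraries, 1424 and 1348 under the same 2 pairings and 54 without doublets. Samples with equal numbers did not deviate together (correlation of deviations 0.00923 in *Foxb1* neurons), and a block for the replicate number gave 5 calls. The share of 1.38% was 5.26% at 1 UMI, 0.256% at 3, 0.181% thinned, 1.83% thinned at 1 UMI and 1.15% to 1.67% with 1 library left out. Its difference, fasted minus fed, of 0.221 points was 2.34 at 1 UMI, -0.193 at 3, -0.200 thinned and 0.556 thinned at 1 UMI. With 1 library left out it was -0.114 to 0.539 (-0.0676 without fed 2, lowest without fed 1). The causes were not tested.

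Of the named genes' values in the first comparison 2188 kept their side, 426 (106 genes) lost the call and 7 turned: *Dkk2* (-0.45), *Robo1* (-0.016), *Nr1d2* (-0.13) and *Slc1a2* (-0.26) at 3 *Foxb1* UMIs, *Tac2* at 1 (0.060), and *Sst* (0.32) and *Nefl* (-0.033) without fed 3 and fed 4. For fasting 70 values of the 20 named genes passed the threshold under an alternative (both of those pairings, separate libraries, no filter or no doublets). In the third, *Mvb12a* (-11.48) turned at 3 UMIs. With 6 and 7 nuclei, 1 UMI was worth 31.6 and 27.3 CPM in fed 1 and fed 2, which limits what can be seen there, and fasting rests on 1 pool.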
